A study of Mus musculus with 2 samples.

Results

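In sections of mouse skin, 292 spots lay over skeletal muscle whose fast myosin transcripts were mostly *Myh4*. They were 292 of 3175 spots over tissue, and 2174 of those spots had at least 200 unique molecular identifiers (UMIs, counts of single captured transcripts). A member had at least 200 UMIs, at least 3% of them in *Myh1*, *Myh2*, *Myh4*, *Mylpf*, *Ckm* and *Atp2a1*, at least 5 UMIs in the 3 fast myosin genes *Myh1*, *Myh2* and *Myh4*, and at least 75% of these in *Myh4*. Muscle spots with a smaller *Myh4* share are called mixed here. They numbered 187, and a further 41 muscle spots had too few myosin UMIs to be typed. Members were chosen on measured values, so their levels of the 6 genes in the rule are descriptions and carry no test.

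The tissue was skin from female mice of the hairless strain SKH-1, aged 10 to 12 weeks. The 4 groups were skin exposed to ultraviolet radiation (UVR) and treated with 0.1% retinol, UVR-exposed skin treated with 0.03% 9-cis HPR, UVR-exposed skin without a retinoid, and normal control skin. Each group had 1 section, and the labels do not say which or how many animals they came from, so variation between animals could not be measured and no test was made between groups. The UVR and control sections shared 1 capture area and both retinoid-treated sections shared another, so that for retinoid-treated against UVR skin the treatment and the capture area cannot be told apart.

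The labels place the sections as upper and lower, and the section at smaller image rows was taken as the upper one. The spot grid runs the other way, and reading it in place of the image exchanges the groups within each area. All group names below rest on the reading by image. A spot covers several cells or parts of them, so the classes are classes of spots and not of fibres. In such sums, fewer fibres of a kind and less RNA per fibre cannot be told apart. Of the barcodes over tissue, 430 were present on both areas, since each area uses the same barcode set.

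Skeletal muscle fibres differ in the myosin heavy chain that drives contraction. In rodents the fastest fibres (type IIb) use the product of *Myh4*, fibres of type IIx that of *Myh1*, fibres of type IIa that of *Myh2*, and slow fibres that of *Myh7*. Type IIb fibres rely mainly on glycolysis and are rich in parvalbumin (*Pvalb*), a calcium buffer that speeds relaxation. Under mouse skin runs the panniculus carnosus, a thin muscle sheet made largely of fast fibres.

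The 3 myosin genes that define the members lie side by side on chromosome 11, with *Myh4* at chr11:67237812-67260447, *Myh1* at chr11:67200102-67224577 and *Myh2* at chr11:67171027-67197517 (GRCm38.p6). Their promoters, from 250 bases before to 50 bases after the start in RefSeq's table of that build, are shown because the classes rest on the balance between these genes. They cover chr11:67237562-67237861, chr11:67199852-67200151 and chr11:67170777-67171076, all on the plus strand. Capitals mark the longest run of bases present in all 3.
Myh4 promoter: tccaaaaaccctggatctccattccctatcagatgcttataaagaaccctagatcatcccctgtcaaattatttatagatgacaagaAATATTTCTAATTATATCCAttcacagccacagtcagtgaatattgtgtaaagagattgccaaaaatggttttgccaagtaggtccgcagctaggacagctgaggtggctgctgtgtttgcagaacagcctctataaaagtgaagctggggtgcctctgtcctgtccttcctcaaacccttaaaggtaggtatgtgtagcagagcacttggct
Myh1 promoter: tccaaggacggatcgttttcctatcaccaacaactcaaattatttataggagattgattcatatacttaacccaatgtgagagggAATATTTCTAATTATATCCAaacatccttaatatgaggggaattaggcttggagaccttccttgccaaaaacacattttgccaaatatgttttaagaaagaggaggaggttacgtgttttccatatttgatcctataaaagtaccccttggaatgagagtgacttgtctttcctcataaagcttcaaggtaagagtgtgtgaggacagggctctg
Myh2 promoter: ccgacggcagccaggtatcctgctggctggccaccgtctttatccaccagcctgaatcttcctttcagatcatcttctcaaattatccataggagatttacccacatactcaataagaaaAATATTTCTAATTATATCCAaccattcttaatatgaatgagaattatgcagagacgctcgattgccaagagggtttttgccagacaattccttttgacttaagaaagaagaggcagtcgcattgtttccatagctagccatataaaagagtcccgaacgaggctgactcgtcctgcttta
The shared run is 20 bases long and starts 163 bases before the start of *Myh4*, 165 bases before that of *Myh1* and 130 bases before that of *Myh2*. On either strand it was found in 3 of 32851 promoters of this length (0.00913%), which were these 3. The match is a description of the sequence and says nothing of binding. The transcripts of the 3 genes are near-identical in long stretches and the probe sequences were not used here, so how cleanly the assay separates *Myh4* from *Myh1* and *Myh2* was not tested.

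The UVR plus retinol section had 89 members, the UVR plus 9-cis HPR section 58, the UVR section 120 and the control section 25. Of the typed muscle spots, the members were 68.5% in the UVR plus retinol section (exact binomial 95% interval 59.7 to 76.3), 36.9% in the UVR plus 9-cis HPR section (29.4 to 45.0), 71.9% in the UVR section (64.4 to 78.5) and 100% in the control section (86.3 to 100), where no spot was mixed. These intervals, and all others between sections, cover counting error only. The lowest share thus belonged to the 9-cis HPR section, where mixed spots outnumbered members at 99 to 58.

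Depth differed between the sections. The members of the UVR plus retinol section had a median of 702 UMIs, those of the UVR plus 9-cis HPR section 595.5, those of the UVR section 1640 and those of the control section 876. Their summed UMIs were 77078, 38066, 221624 and 40216 in that order. A median of 37 fast myosin UMIs stood behind the *Myh4* share of a member in the UVR plus retinol section, 17 in the UVR plus 9-cis HPR section, 165 in the UVR section and 126 in the control section, so single shares were least precise in the 9-cis HPR section. There 88 of the 99 mixed spots had under 20 myosin UMIs. With at least 20 myosin UMIs required, that section kept 25 members and 11 mixed spots, and its share became 69.4%. The share was then 72.7% in the UVR plus retinol section and 73.3% in the UVR section.

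**Figure D1:**
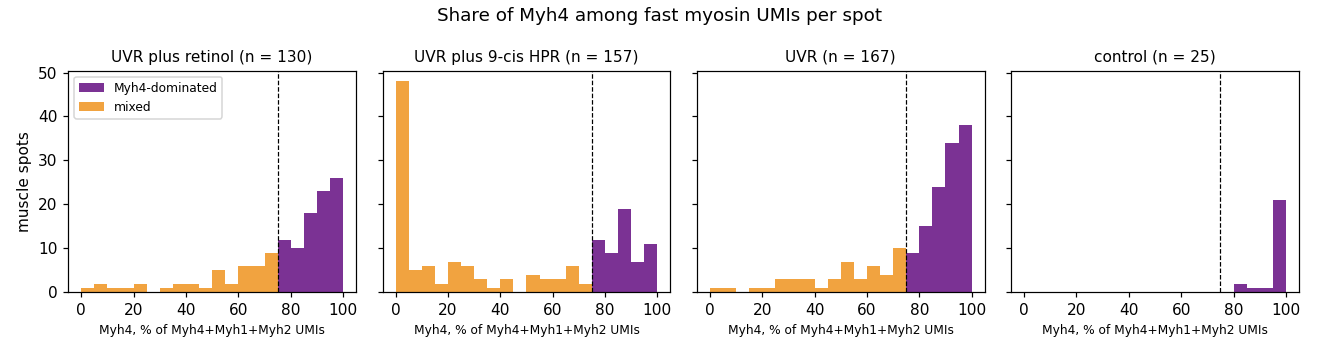
Number of muscle spots (vertical axis) by the percentage of *Myh4* among fast myosin UMIs (horizontal axis), 1 panel per section, with members in purple, mixed spots in orange and a dashed line at the 75% threshold. The control section holds members only, and the 9-cis HPR section has a separate peak of mixed spots near 0%.

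The plot of shares per spot shows that the threshold divides a continuous spread in the UVR plus retinol and UVR sections. The median *Myh4* share of the members was 90.6% in the UVR plus retinol section, 87.0% in the UVR plus 9-cis HPR section, 91.4% in the UVR section and 98.4% in the control section. All myosin UMIs were *Myh4* in 12, 8, 9 and 10 members in that order. Mixed spots had a median share of 60% in the UVR plus retinol section and 53.8% in the UVR section. In the 9-cis HPR section it was 6.25%, and 53 of 99 mixed spots were under 10% *Myh4*. Just inside the threshold, from 75% to 80%, lay 33 members, and just outside, from 70% to 75%, lay 21 mixed spots. The summed *Pvalb* level was 4792 CPM (a gene's UMIs over the total UMIs of the summed spots, scaled to a common total) in those inside and 3537 CPM in those outside. These sums pool the sections. The UVR plus retinol, UVR plus 9-cis HPR and UVR sections gave 12, 12 and 9 spots inside but 9, 2 and 10 outside. Section and *Myh4* share therefore cannot be told apart in this difference.

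The remainder of the members' fast myosin was almost all *Myh1*. Summed over members, *Myh1* made up 8.08% of 5050 myosin UMIs in the UVR plus retinol section, 10.8% of 1256 in the UVR plus 9-cis HPR section, 9.19% of 21656 in the UVR section and 3.67% of 5145 in the control section. *Myh2* had 51, 13, 84 and 4 UMIs. Among mixed spots *Myh1* made up 37.0% of myosin UMIs in the UVR plus retinol section, 73.2% in the UVR plus 9-cis HPR section and 41.5% in the UVR section. The mixed class is therefore a *Myh1*-rich class, and in the 9-cis HPR section *Myh1* is its main fast myosin.

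In the UVR and UVR plus retinol sections the members lay in a thin band along the base. In the UVR plus 9-cis HPR section they lay in grid columns 0 to 16 and 74 to 127. In the UVR and UVR plus 9-cis HPR sections all 128 grid columns held a muscle spot, against 109 columns (85.2%) in the UVR plus retinol section. Members themselves occupied 73 columns in the UVR plus retinol section, 46 in the UVR plus 9-cis HPR section and 100 in the UVR section. In the control section muscle was found in 18 of 128 columns (14.1%), all at the ends. The median distance of a member to the nearest spot rich in epidermal transcripts (at least 5% of UMIs in a list of 10 epidermal genes) was 7.0, 6.16, 5.78 and 4.36 spot pitches in the UVR plus retinol, UVR plus 9-cis HPR, UVR and control sections. Most members touched another member (87 of 89, 56 of 58, 114 of 120 and 25 of 25 in the same order). In the UVR section 2 members had no muscle neighbour, and these had 5 myosin UMIs each, all *Myh4*, in 240 and 230 UMIs.

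**Figure D2:**
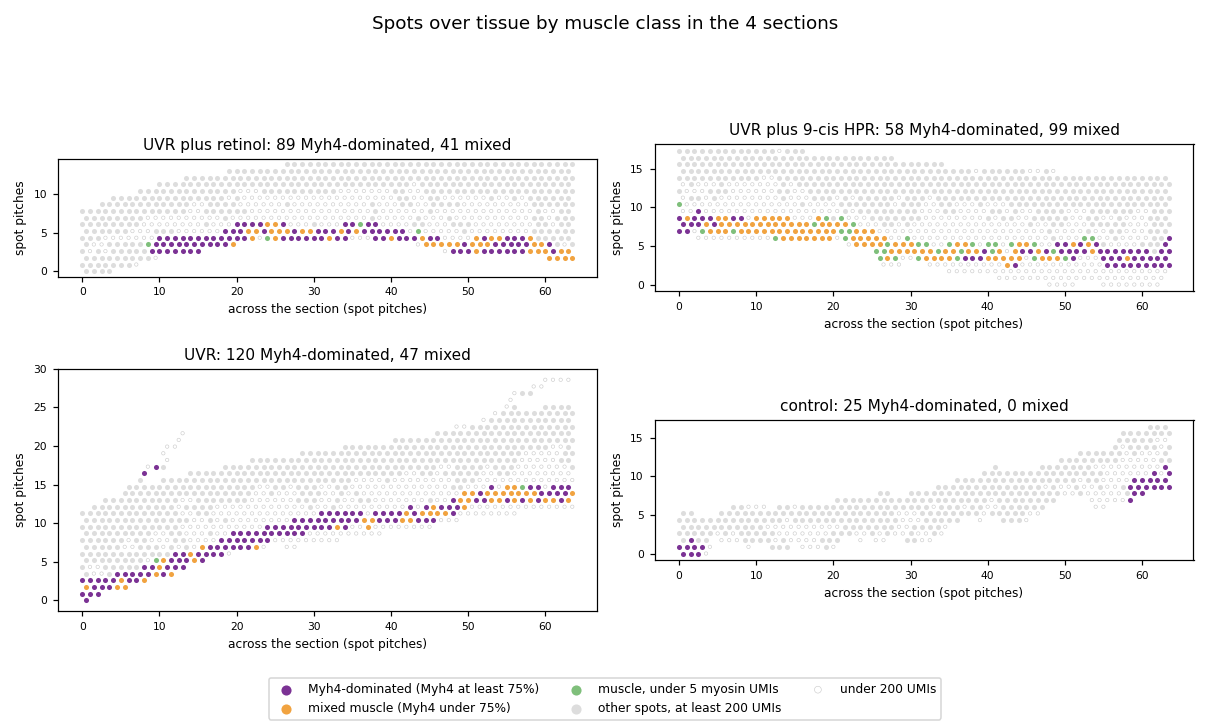
Position of every spot over tissue in the 4 sections, in spot pitches on both axes, with members in purple, mixed muscle spots in orange, untyped muscle in green, other spots in grey and spots under 200 UMIs as open circles. Members run along the base in the UVR and retinol sections, gather at the ends in the 9-cis HPR section, and form 2 end clumps of 8 and 17 spots in the control section.

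The share of *Myh4* changed along the band. In the UVR plus 9-cis HPR section, across 8 equal bins of 16 grid columns, *Myh4* made up 71.8% of fast myosin UMIs in bin 1 and 89.0% in bin 8. In its bins 3 and 4 it had 2 of 180 UMIs (1.11%, exact 95% interval 0.135 to 3.96) and 1 of 145 UMIs (0.690%, 0.0175 to 3.78). The typed muscle spots of these 2 bins, 19 and 17, included no member. In the same bins the UVR section had 92.4% and 93.6% *Myh4*, and the UVR plus retinol section 86.0% and 78.4%.

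In the UVR plus retinol section the share was highest in bin 2, at 94.3%, and lowest in bin 8, at 61.4%, while bin 1 held no typed muscle. In the UVR section it ran between 68.4% in bin 7 and 93.6% in bin 4. The control section had all 1435 of its myosin UMIs in *Myh4* in bin 1, so that 3 counts, the limit a count of 0 allows, bound the other myosins at 0.209%. It had 94.8% *Myh4* in bin 8. Its 6 inner bins held 34 to 54 kept spots each and no muscle spot.

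Of the neighbour pairs of typed muscle spots, 69.5% of 266 were of like class in the UVR plus retinol section. The shares were 82.1% of 301 in the UVR plus 9-cis HPR section and 70.1% of 341 in the UVR section. All 42 pairs of the control section were pairs of members, which was fixed in advance because it had no mixed spot. These shares are a description, since neighbouring spots can share fibres and free transcripts. The share that random placement of the classes would give was not computed.

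**Figure D3:**
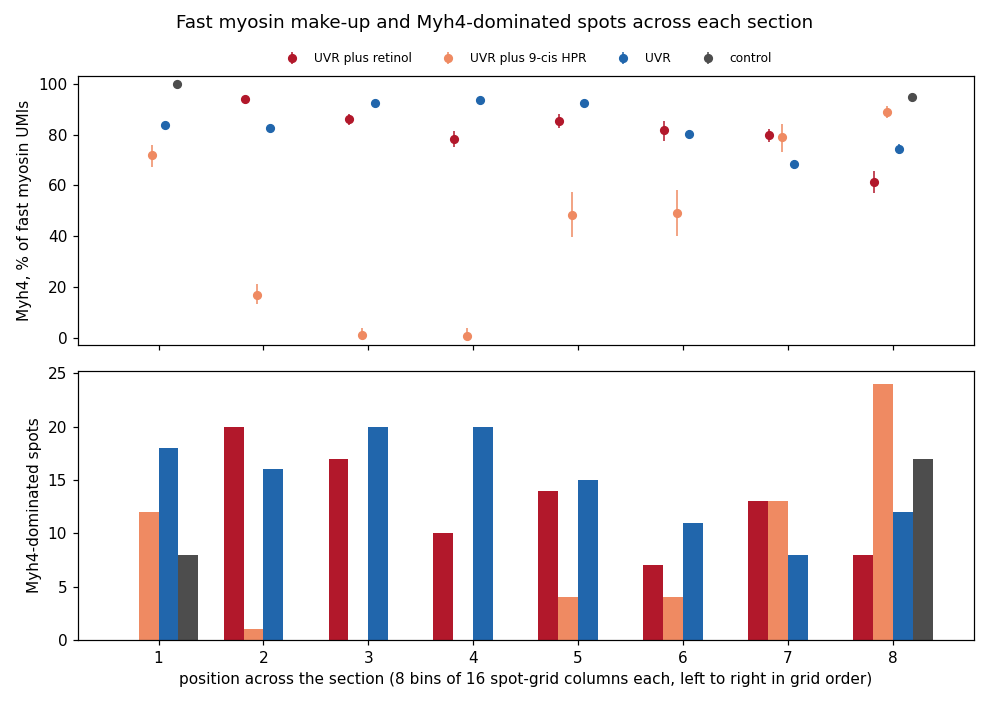
Upper panel, percentage of *Myh4* among fast myosin UMIs of typed muscle spots (vertical axis) in 8 bins across each section (horizontal axis), with exact binomial 95% intervals; lower panel, number of members per bin. *Myh4* is near 0% in bins 3 and 4 of the 9-cis HPR section and above 60% in every bin with muscle in the other sections.

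*Pvalb*, a marker outside the rule, was first set against spots rich in epidermal transcripts, which checks for muscle and not for the *Myh4* share. Mixed spots held *Pvalb* too, as given below. *Pvalb* reached 3412 CPM in the members of the UVR plus retinol section, 1366 in those of the UVR plus 9-cis HPR section, 5446 in those of the UVR section and 13005 in those of the control section. In spots rich in epidermal transcripts, which should lack this gene, it had 8.82, 1.84, 24.5 and 40.6 CPM in the same order, at median depths of 4868, 3319, 5552 and 1100 UMIs. The level in members was therefore far above that of free transcripts in every section. At least 1 *Pvalb* UMI was present in 75.3% of members in the UVR plus retinol section, 50.0% in the UVR plus 9-cis HPR section, 90% in the UVR section and 92.0% in the control section. The corresponding shares of epidermis-rich spots were 4.90%, 0.752%, 12.3% and 6.06%.

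*Mylpf*, the regulatory light chain of fast muscle myosin, is part of the rule. It stood at 10262 CPM in the UVR plus retinol section, 3047 in the UVR plus 9-cis HPR section, 13654 in the UVR section and 15019 in the control section. Mixed spots had 9252, 3447 and 14629 CPM in the first 3 of these sections, so *Mylpf* marks muscle in both classes and did not follow the *Myh4* share. *Ckm*, the muscle creatine kinase that regenerates ATP, ran between 59660 CPM in the UVR plus 9-cis HPR section and 129302 CPM in the control section.

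Markers of slow fibres were nearly absent. The 10 measured genes of the slow fibre list summed to 337 CPM in the members of the UVR plus retinol section, 394 in the UVR plus 9-cis HPR section, 203 in the UVR section and 99.5 in the control section. *Myh7*, *Myl3*, *Tnnc1* and *Myh7b* were listed at 0 in the members of all 4 sections. Zeros need care with this probe panel: the glycolytic enzyme gene *Gapdh*, which every cell uses, had 3 UMIs over all spots of the series, and *Myh7* and *Tnnc1* had 2 and 8.

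Transcripts of other tissues were present at low levels. The epidermis list (10 measured genes) had 2296 CPM in the members of the UVR plus retinol section, 7750 in the UVR plus 9-cis HPR section, 1692 in the UVR section and 2810 in the control section. The fibroblast list (8 genes) had 1168, 1708, 433 and 497 CPM. The endothelial list (6 genes) had between 26.3 and 49.7 CPM, and the smooth muscle list (5 genes) between 104 and 235 CPM, with *Acta2*, *Myh11*, *Tagln* and *Cnn1* at 0 in every section. Of the adipocyte list, *Car3*, a carbonic anhydrase gene that was also muscle-enriched here, held nearly all UMIs, and the other 9 genes had 234 CPM in the members of the UVR plus retinol section, 394 in the UVR plus 9-cis HPR section, 162 in the UVR section and 298 in the control section. Its defining gene *Adipoq* was at 0 throughout, though *Adipoq* had only 21 UMIs in the whole series and *Acta2* 16. Lists of acetylcholine receptor and other junction genes (184 to 389 CPM) and of regenerating fibre genes (0 to 105 CPM) were also low, with embryonic *Myh3* at 1 UMI and neonatal *Myh8* at 1 UMI over all members.

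Members were next set against mixed spots of the same section, to see which other transcripts go with *Myh4*. Counts were summed per section and class over the 3 sections that held both, and tested with edgeR's quasi-likelihood test with section as a block, over 832 genes outside the rule. No gene passed an adjusted p of 0.05, so 0% were called in either direction. At an unadjusted p under 0.05 edgeR gave 57 genes, and DESeq2 gave 11 with 0 called. A gene that did not pass is not shown to be equal in both classes.

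*Pvalb* was at 3412 CPM in members and 2663 in mixed spots of the UVR plus retinol section, at 1366 and 935 CPM in the UVR plus 9-cis HPR section, and at 5446 and 4290 CPM in the UVR section. It was thus higher among members in 3 of 3 sections. It did not rise at every step of the *Myh4* share. The steps were under 25%, 25% to 50%, 50% to 75%, 75% to 90% and 90% or more. In that order *Pvalb* had 3757, 3910, 2275, 3315 and 3489 CPM in the UVR plus retinol section. The values under 50% there rest on 21 and 14 UMIs. The UVR plus 9-cis HPR section had 823, 955, 1318, 1317 and 1470 CPM. From 25% upward the UVR section had 4692, 4405, 5590 and 5304 CPM. The log2 ratio of *Pvalb* between the classes was 0.45 (SE 0.15, 95% interval 0.14 to 0.75), with an edgeR adjusted p of 0.416. An exact two-sided sign-flip permutation over the 3 sections gave p = 0.25, which is the smallest it can give.

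*Actn3*, the fast-fibre alpha-actinin of the Z-disc, was at 5657 CPM in members and 3926 in mixed spots of the UVR plus retinol section, at 3835 and 3141 CPM in the UVR plus 9-cis HPR section, and at 9033 and 5712 CPM in the UVR section. Its log2 ratio was 0.55 (SE 0.14, 95% interval 0.27 to 0.83) and its edgeR adjusted p was 0.186. When libraries were scaled on muscle-enriched genes only, the ratio was 0.64 and the edgeR adjusted p was 0.000237, and *Actn3* and *Nccrp1*, a gene of stratified epithelia, were the 2 genes called. *Actn3* was singled out after its values were seen, although it belongs to the list of fast fibre sarcomere genes. Within the UVR section it stood at 10080 CPM in members with at least 90% *Myh4*, 7971 CPM at 75% to 90%, 6238 CPM in mixed spots at 50% to 75% and 4822 CPM at 25% to 50%. In the UVR plus 9-cis HPR section the order was not kept, with 4246 CPM at 90% or more and 3641 CPM at 75% to 90%. Its mixed spots had 1978 CPM at 50% to 75%, 3503 CPM at 25% to 50% and 3385 CPM under 25%. The UVR plus retinol section had 6885 CPM at 90% or more and 4108 CPM at 75% to 90%. Its mixed spots had 4000, 4189 and 3399 CPM at 50% to 75%, 25% to 50% and under 25%.

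Other genes with low unadjusted p went in both directions, and these too were named after their values were seen. *Oplah* (log2 ratio 1.55, edgeR adjusted p 0.390) and *Igfbp5* (0.54, 0.416 by edgeR) were higher in members in 3 of 3 sections. *Lmod2*, leiomodin of the thin filament, had a log2 ratio of -0.79 (edgeR adjusted p 0.186), *Hspb6*, a small heat shock protein gene of muscle, -0.36 (0.390 by edgeR), and *Cox6a2*, the muscle form of a cytochrome oxidase subunit, -0.30 (0.546 by edgeR). *Lmod2*, *Hspb6* and *Cox6a2* were each lower in 3 of 3 sections, and none of the genes named here passed the threshold.

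**Figure D4:**
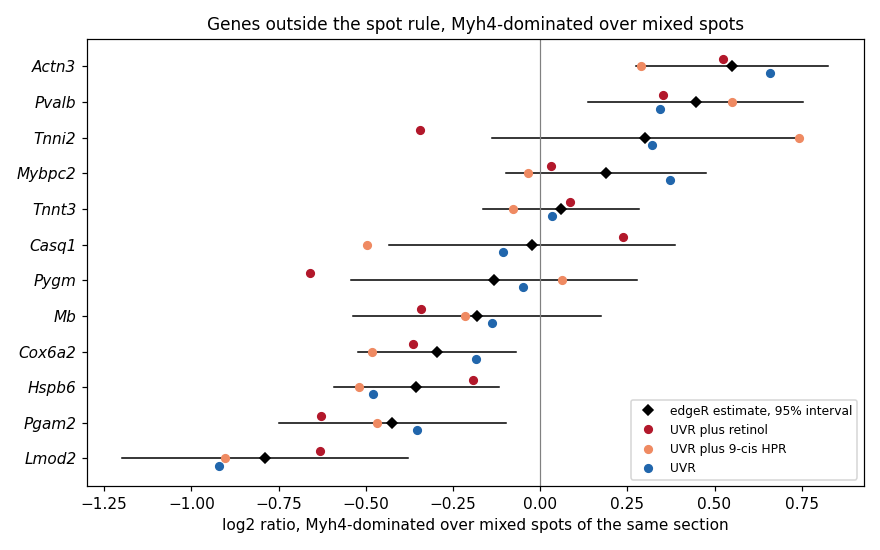
Log2 ratio of members over mixed spots of the same section (horizontal axis) for 12 muscle genes chosen for display after their values were seen (vertical axis), with coloured points for the 3 sections, and black diamonds and lines for edgeR estimates with 95% intervals. *Actn3* and *Pvalb* lie above 0 and *Mb*, *Cox6a2*, *Hspb6*, *Pgam2* and *Lmod2* below 0 in all 3 sections, and none passed the adjusted threshold.

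No list gene was called between the classes. The median log2 ratio of members over mixed spots was -0.08 for 19 tested fast fibre sarcomere genes, -0.03 for 9 glycolysis and glycogen genes, -0.10 for 19 oxidative and lipid use genes and -0.04 for 8 calcium handling genes, against 0.01 for all 832 genes. Lists of other tissues did not keep to 1 level: the summed epidermis list was 0.577 times the level of mixed spots in the UVR plus retinol section (95% counting interval 0.460 to 0.723), 3.67 times in the UVR plus 9-cis HPR section (2.98 to 4.52) and 1.28 times in the UVR section (1.05 to 1.58). The summed oxidative list was 64843 CPM in members of the UVR plus retinol section, 50701 CPM in the UVR plus 9-cis HPR section and 52580 CPM in the UVR section. That was 0.894 times the level of mixed spots in the UVR plus retinol section (95% counting interval 0.853 to 0.938), 0.842 times in the UVR plus 9-cis HPR section (0.797 to 0.890) and 0.892 times in the UVR section (0.864 to 0.921).

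Within the members, the sections were compared as ratios of CPM for genes with 50 or more UMIs in the pair of sections. Differences of 2-fold or more were counted. The UVR members had 221624 UMIs, the most of any section. In pairs with that section the minimum was therefore met most easily by genes high in UVR members. Muscle-enriched genes, of which there were 394, were those at least 5 times higher in muscle spots than in spots with little muscle. They supplied 56.1% of member UMIs in the UVR plus retinol section, 42.5% in the UVR plus 9-cis HPR section, 63.2% in the UVR section and 62.3% in the control section. Scaling on them in place of all genes shifts every log2 ratio by -0.24 for UVR over control, 0.09 for retinol over UVR, 0.32 for 9-cis HPR over UVR and 0.23 for 9-cis HPR over retinol.

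Members of the UVR section had more myoglobin and other oxidative transcripts, and less *Pvalb*, *Igfbp5* and *Mybph*, than members of the control section. Control members lay only in grid columns 0 to 6 and 117 to 127, while UVR members ran along columns 0 to 126. Position along the band is therefore not matched in this comparison, on either side of the image, and its part was not tested. Among 562 genes, 10.5% passed 2-fold upward and 2.85% downward in UVR members. Among 239 muscle-enriched genes the shares were 16.7% and 2.51% (40 and 6 genes), and 26 and 11 genes when scaled on muscle-enriched genes. The lower genes include *Tchh*, which passed as muscle-enriched through its UMIs in control members. With both sections thinned to equal total UMIs, 13 genes were higher and 13 lower, but only 176 genes could then be compared and depth per spot was not matched.

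Of the oxidative and lipid use list, 5 of 17 compared genes were at least 2-fold higher in UVR members and 0 lower. The median log2 ratio was 0.68 (4 genes and 0.45 when scaled on muscle-enriched genes). It was 0.17 for all genes and 0.35 for muscle-enriched genes. *Mb*, myoglobin, the oxygen store of oxidative muscle, had 234 UMIs (1056 CPM) in UVR members and 7 UMIs (174 CPM) in control members, a 6.07-fold difference (95% counting interval 2.90 to 15.3). It was also higher on each side of the image, at 1035 against 181 CPM on the left and 1099 against 171 CPM on the right. The control values of the left and right sides rest on 2 and 5 UMIs. *Cox7a1*, a cytochrome oxidase subunit of muscle, was 2.05-fold higher (1.10 to 4.20, or 1.74-fold when scaled on muscle-enriched genes), *Acadl*, a fatty acid dehydrogenase, 2.45-fold (1.08 to 6.87), *Etfb*, which passes on electrons from fat oxidation, 2.77-fold (1.03 to 10.5), and *Cpt1b*, the carnitine transferase that admits fatty acids to mitochondria, 3.27-fold (1.06 to 16.3). The last 3 rest on 6, 4 and 3 UMIs in the control section.

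Among muscle-enriched genes the highest ratios in UVR members were those of *Alpk3*, a kinase gene of striated muscle (94 UMIs in UVR and 2 in control members, 8.53-fold, 2.30 to 71.5), *Mb*, *Ptpn3*, a tyrosine phosphatase gene (5.13-fold, 1.95 to 19.1), *Slc25a25*, a mitochondrial ATP-Mg carrier gene (4.86-fold, 2.03 to 15.2, but log2 0.89 on the left side alone), *Ppp1r12b*, a myosin phosphatase subunit gene (4.63-fold, 1.22 to 39.2), and *Xirp1*, an actin-binding gene of muscle junctions (4.45-fold, 1.17 to 37.7). Over all genes the highest was *Ddit4*, a stress-induced inhibitor of mTOR signalling, with 80 UMIs in UVR and 1 in control members (14.5-fold, 2.53 to 580). Most of these lean on fewer than 10 UMIs in the 25 control members, which their wide intervals show. They met the 50 UMI minimum almost entirely through their UMIs in UVR members, so the minimum itself favoured such ratios.

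The genes lower in UVR members were better covered in the control section. *Pvalb* had 1207 UMIs (5446 CPM) in UVR members and 523 (13005 CPM) in control members, 2.39-fold lower (2.15 to 2.65), and was lower on each side of the image. *Igfbp5*, a binding protein of insulin-like growth factors, had 355 UMIs (1602 CPM) in UVR members and 203 (5048 CPM) in control members, 3.15-fold lower (2.64 to 3.75). *Mybph*, a myosin-binding protein, had 91 UMIs (411 CPM) and 83 (2064 CPM), 5.03-fold lower in UVR members (3.69 to 6.84). *Nr1d1*, the clock repressor REV-ERB alpha, was 4.38-fold lower (2.54 to 7.47). *Apobec2*, an APOBEC family gene of muscle, was 2.04-fold lower (1.41 to 2.90), under 2-fold on either side alone. *Nrep* was 2.45-fold lower (1.27 to 4.53), with 16 UMIs in control members. On the left it had 180 CPM in UVR and 181 CPM in control members, and on the right 125 and 480 CPM. Of 7 calcium handling genes compared none passed 2-fold on total UMIs. *Casq1*, the calcium store protein of fast fibres, had 1530 CPM in UVR members and 2959 CPM in control members, and passed 2-fold (2.28-fold lower) when scaled on muscle-enriched genes.

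*Tchh*, trichohyalin of the hair follicle sheath, had 0 UMIs in UVR members and 67 in control members, all in the clump on the right. Against a floor of 3 counts over the UVR members it was at least 123-fold lower there. No UMI of it was found in members of the other 2 sections.

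**Figure D5:**
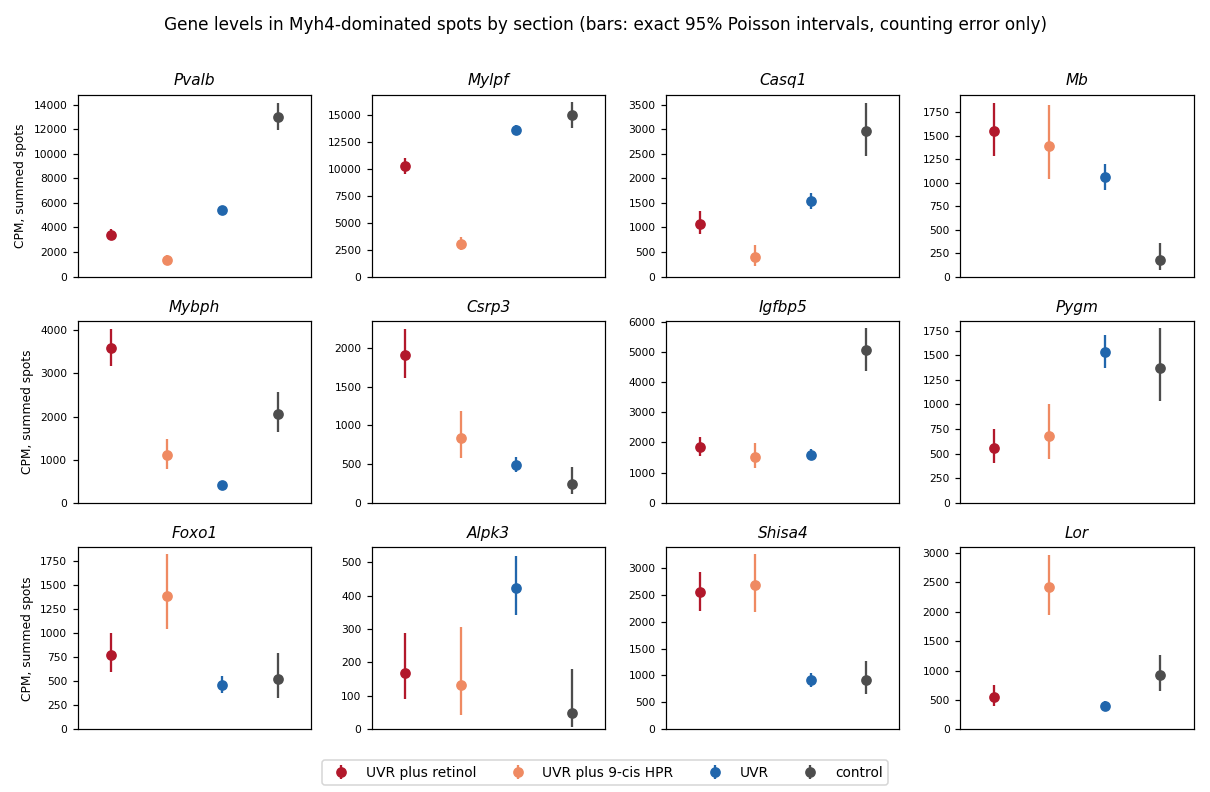
Level of 12 genes in CPM (vertical axes, from 0) summed over the members of each section, with exact 95% Poisson intervals that cover counting error only; in each panel the sections run from left to right as UVR plus retinol, UVR plus 9-cis HPR, UVR and control. *Pvalb* and *Igfbp5* are highest in the control section, *Mb* lowest there, *Mybph* and *Csrp3* highest in the retinol section and *Lor* highest in the 9-cis HPR section.

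Members of the UVR plus retinol section had more *Mybph* and *Csrp3* and less *Pygm* and *Pfkm* than UVR members. Among 657 genes, 7.46% passed 2-fold upward and 6.70% downward, and among 260 muscle-enriched genes 4.23% and 12.7% (11 and 33 genes, and 12 and 27 when scaled on muscle-enriched genes). In the glycolysis and glycogen list, 3 of 9 genes passed 2-fold downward and 0 upward. The median log2 ratio was -0.64 (2 genes and -0.55 when scaled on muscle-enriched genes). It was 0.12 for all genes and -0.23 for muscle-enriched genes. *Pygm*, muscle glycogen phosphorylase, had 43 UMIs (558 CPM) in retinol members and 339 (1530 CPM) in UVR members, 2.74-fold lower (1.99 to 3.86). *Pfkm*, muscle phosphofructokinase, was 2.06-fold lower (1.68 to 2.54), or 1.94-fold when scaled on muscle-enriched genes.

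*Mybph* had 276 UMIs (3581 CPM) in retinol members and 91 (411 CPM) in UVR members, 8.72-fold higher (6.86 to 11.2). It was higher on each side of the image, at 4486 against 367 CPM on the left and 1937 against 501 CPM on the right. *Csrp3*, the muscle LIM protein of the Z-disc, had 147 UMIs (1907 CPM) and 108 (487 CPM), 3.91-fold higher in retinol members (3.03 to 5.06). *Igf2*, an insulin-like growth factor, was 3.71-fold higher (2.11 to 6.61), *Myom3*, an M-band protein, 3.47-fold (2.06 to 5.89), *Shisa4* 2.79-fold (2.28 to 3.41) and *Kcnq5*, a potassium channel gene, 2.50-fold (1.44 to 4.34). The 2 fibroblast genes compared were both over 2-fold higher, *Col3a1* at 4.24-fold (2.36 to 7.77) and *Col1a2* at 2.72-fold (1.82 to 4.06). *Tmem223* was 4.11-fold higher (2.61 to 6.52).

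On the lower side, *Mt2*, a metallothionein, was 3.57-fold lower in retinol members (2.20 to 6.17), *Serpina3n*, a protease inhibitor, 3.48-fold (1.40 to 11.2), *Oat*, ornithine aminotransferase, 2.86-fold (1.64 to 5.39) and *Slc25a25* 2.74-fold (1.65 to 4.85). The fast fibre sarcomere list had 1 of 18 genes at least 2-fold lower, *Myom1*, and none higher.

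Members of the UVR plus 9-cis HPR section had lower levels of many muscle-enriched genes and higher levels of epidermal genes than UVR members. This comparison shares its UVR members with the previous one. Among 594 genes, 20.4% passed 2-fold upward and 14.5% downward, and among 237 muscle-enriched genes 4.64% and 28.3% (11 and 67 genes). Scaled on muscle-enriched genes, these became 22 and 38 genes.

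Of the fast fibre sarcomere list, 7 of 19 compared genes were at least 2-fold lower and 0 higher. The median log2 ratio of the list was -0.80, beside 0.16 for all genes and -0.57 for muscle-enriched genes. Scaled on muscle-enriched genes, 2 of the 7, *Ttn* and *Myom1*, still passed 2-fold and the median was -0.48. *Pvalb* had 52 UMIs (1366 CPM) in 9-cis HPR members and 1207 (5446 CPM) in UVR members, 3.99-fold lower (3.02 to 5.37). Of the sarcomere genes, *Actn3* was 2.36-fold lower (1.99 to 2.81, or 1.89-fold with that scaling) and *Ttn*, titin, 3.0-fold (2.46 to 3.69). *Tnnt3*, the fast troponin T, had 12268 CPM in 9-cis HPR members and 14164 CPM in UVR members. *Tnni2*, the fast troponin I, was higher in 9-cis HPR members, at 1051 CPM against 821 CPM. In mixed spots *Ttn* had 3677 CPM in the 9-cis HPR section and 10223 CPM in the UVR section. The calcium handling list had 2 of 7 genes lower, *Casq1* and *Hrc*. Its median log2 ratio of -0.27 became 0.05 when scaled on muscle-enriched genes, with 1 gene lower and 1 higher. *Casq1* had 15 UMIs (394 CPM) in 9-cis HPR members and 339 (1530 CPM) in UVR members, 3.88-fold lower (2.32 to 7.01). In mixed spots it had 567 CPM in the 9-cis HPR section and 1644 CPM in the UVR section. The glycolysis and glycogen list had 3 of 9 genes lower and the oxidative and lipid use list 4 of 18. Neither had a gene at least 2-fold higher. Of all muscle-enriched genes compared, 28.3% were lower. Scaled on muscle-enriched genes, 1 gene of each list was lower and 1 oxidative gene, *Atp5a1*, was higher. *Mylpf*, a gene of the rule, was 4.48-fold lower (3.72 to 5.44).

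The lowest ratios among muscle-enriched genes were those of *Hipk3*, a kinase gene (1 UMI in 9-cis HPR and 63 in UVR members, 10.8-fold, 1.87 to 434), *Lrrc20* (1 and 50 UMIs, 8.59-fold, 1.47 to 346), *Klhl33* (2 and 67 UMIs, 5.75-fold, 1.53 to 48.5), *Mylpf*, *Nrap*, an actin-binding protein of muscle junctions (4.43-fold, 2.29 to 9.80), and *Pdk2*, a pyruvate dehydrogenase kinase (3 and 70 UMIs, 4.01-fold, 1.32 to 19.9). *Irs2*, an adaptor of insulin signalling, had 1 UMI in 9-cis HPR and 62 in UVR members (10.6-fold, 1.84 to 427). Ratios that rest on 1 to 3 UMIs are loosely placed. Those genes met the 50 UMI minimum through their UMIs in UVR members, so the minimum itself favoured such ratios.

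Higher in 9-cis HPR members were *Mafa*, a transcription factor gene (3.64-fold, 2.23 to 5.86), *Shisa4* (2.94-fold, 2.29 to 3.75), *Dusp28*, a phosphatase gene (2.91-fold, 1.87 to 4.46), *Ank2*, an ankyrin (2.72-fold, 1.54 to 4.66), *Mybph* (2.69-fold, 1.82 to 3.91) and *Reep1* (2.61-fold, 1.64 to 4.07). Both compared genes of the atrophy and denervation list were at least 2-fold higher. *Foxo1*, a transcription factor active in muscle wasting, had 53 UMIs (1392 CPM) in 9-cis HPR members and 102 (460 CPM) in UVR members, 3.03-fold higher (2.13 to 4.26). *Cdkn1a*, the cell cycle inhibitor p21, was 2.69-fold higher (1.87 to 3.82), with 1494 CPM in 9-cis HPR and 487 CPM in UVR members on the right side, where epidermal transcripts were high, and 659 and 461 CPM on the left. Mixed spots of the 9-cis HPR and UVR sections had 1517 and 559 CPM of *Foxo1*, and 1088 and 548 CPM of *Cdkn1a*. The differences in these 2 genes were thus not particular to members. The atrophy ligase genes *Fbxo32* and *Trim63* were at 0 in 9-cis HPR members and at 3 and 6 UMIs in UVR members, which the depth cannot tell apart.

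Epidermal transcripts accompanied these differences. All 3 compared epidermis genes were at least 2-fold higher in 9-cis HPR members. *Krt5*, a basal keratin, was 3.99-fold higher (3.19 to 4.97), *Krt14*, its partner, 3.53-fold (2.28 to 5.40), and *Lor*, loricrin of the cornified layer, 6.23-fold (4.59 to 8.46). The excess lay on the right side, where the epidermis list reached 10054 CPM in 9-cis HPR members, against 1419 CPM in UVR members, while on the left it was 1790 and 1823 CPM. Of the 58 members of the 9-cis HPR section, 15 lay within 3 spot pitches of an epidermis-rich spot. In the UVR section 3 of 120 members did so, in the UVR plus retinol section 0 of 89 and in the control section 9 of 25. *Nccrp1* (7.67-fold, 5.87 to 10.0) and *Fabp5*, an epidermal fatty acid binding protein (7.41-fold, 4.59 to 12.1), followed the same sides.

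*Tnfaip2*, a gene induced by tumour necrosis factor, did not follow them: it stood at 9232 CPM on the left and 4226 CPM on the right in 9-cis HPR members, against 574 and 849 CPM in UVR members (8.48-fold, 6.84 to 10.5). It reached 4244 CPM in mixed spots of the 9-cis HPR section, against 780 CPM in those of the UVR section. With members limited to those with under 0.5% epidermal UMIs (24 in the 9-cis HPR and 104 in the UVR section), 98 genes were at least 2-fold higher and 89 lower of 510. The part of epidermal transcripts in the single-gene differences was not tested.

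The 2 retinoid-treated sections shared a capture area, but their doses differed, at 0.03% for 9-cis HPR and 0.1% for retinol. Among 299 genes, 7.36% passed 2-fold upward and 5.69% downward in 9-cis HPR members, and of 119 muscle-enriched genes 0% were higher and 10.1% (12 genes) lower; scaled on muscle-enriched genes, 2 were higher and 9 lower. *Mylpf* was 3.37-fold lower in 9-cis HPR members (2.77 to 4.13), *Mybph* 3.25-fold (2.34 to 4.60), *Ndufa2*, a subunit of respiratory complex I, 2.78-fold (1.45 to 5.86), *Chchd3*, a mitochondrial inner membrane protein, 2.77-fold (1.40 to 6.08), *Nrap* 2.74-fold (1.34 to 6.35) and *Casq1* 2.73-fold (1.57 to 5.10).

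*Pvalb* had 1366 CPM in 9-cis HPR members and 3412 CPM in retinol members, 2.50-fold lower (1.85 to 3.43). The highest ratios were those of cornified layer genes, *Crct1* (5.35-fold, 2.83 to 10.7), *Sprr1b* (4.35-fold, 2.86 to 6.74) and *Lor* (4.33-fold, 2.99 to 6.38). *Shisa4* stood at 2680 CPM in 9-cis HPR members and 2543 CPM in retinol members.

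From low to high, the order of *Pvalb* levels among members was UVR plus 9-cis HPR, UVR plus retinol, UVR and control, and the counting intervals of neighbours in this order did not overlap. For *Mb* the control section was lowest, and the interval of the UVR plus 9-cis HPR section overlapped those of the UVR plus retinol and UVR sections. With 1 section each, the spread between animals behind either order was not measured.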

How the data were processed

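Per the labels' protocols, fresh-frozen sections on Visium slides were probed with the kit for fixed tissue. The authors deposited UMI counts that are not normalized, made with Space Ranger 2.0.0, per the file headers and the submitters' processing notes. Those notes list mm10 and Seurat 4.1.0 too. Of 19465 gene rows, 11 with a repeated symbol were summed by symbol, and only spots over tissue were listed. No doublet filter was applied, since spots hold several cells.

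Sections were split at the tissue gap. CPM is a gene's summed UMIs over the section's or class's total. Classes were compared with edgeR 4.0.16 (TMM, section as block; R 4.3.3; DESeq2 1.42.0 and limma 3.58.1 also loaded) and sections by CPM ratios without a pseudocount, with exact (Clopper-Pearson) 95% intervals, a 50 UMI minimum and a floor of 3 counts for zeros. Both were tested on simulated counts. Named genes were the 6 highest and 6 lowest 2-fold ratios among muscle-enriched genes, the 3 highest and lowest among all, *Pvalb*, and 2 to 4 list members. Some genes this rule picks are not reported here. The rule for members and the 17 gene lists were chosen with earlier results of these data known. RefSeq loci matched 108 of 108 genes looked up. Alternatives are given below. Python 3.11.15, numpy 2.4.6, pandas 2.3.3, scipy 1.17.1 and matplotlib 3.10.9 were used.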

Additional observations from a re-analysis of the deposited data

Results flagged for a closer look

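Spots under 200 UMIs were left out of the classes, and some of them still met the 3% muscle rule. In the UVR plus retinol section 15.2% of 243 such spots did so, and in the UVR section 30.5% of 292, both above the 10.3% of 126 in the control section (13 spots). The UVR plus 9-cis HPR section had 12.9% of 340. Over these left-out spots *Myh4* made up 78.4% of 97 fast myosin UMIs in the UVR plus retinol section, 51.7% of 60 in the UVR plus 9-cis HPR section, 89.7% of 301 in the UVR section and 90.9% of 44 in the control section. In the control section 2 of the 13 lay in the inner bins where no muscle spot was kept.

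The epidermis list stood apart between the sections. Its summed level in members over mixed spots was 3.67 times in the UVR plus 9-cis HPR section (95% counting interval 2.98 to 4.52) and 1.28 times in the UVR section (1.05 to 1.58), but 0.577 times in the UVR plus retinol section (0.460 to 0.723). The difference between sections was not tested.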

How the results depend on the processing

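With the sections read by the spot grid, the share of members among typed muscle spots was 36.9% in the UVR plus retinol, 68.5% in the UVR plus 9-cis HPR, 100% in the UVR and 71.9% in the control section. With a *Myh4* threshold of 65% the share was 80% in the UVR plus retinol and 80.2% in the UVR section; with 85% it was 51.5%, 23.6% and 57.5% in the UVR plus retinol, UVR plus 9-cis HPR and UVR sections. With at least 20 myosin UMIs it was 69.4% in the UVR plus 9-cis HPR, 72.7% in the UVR plus retinol and 73.3% in the UVR section. Reading by the grid also turned the log2 ratios of UVR over control for *Alpk3* (-3.09), *Mb* (-2.60), *Ptpn3* (-2.36), *Slc25a25* (-2.28), *Ppp1r12b* (-2.21), *Xirp1* (-2.15), *Ddit4* (-3.86), *Tchh* (6.94), *Mybph* (2.33), *Nr1d1* (2.13), *Igfbp5* (1.66), *Nrep* (1.29), *Pvalb* (1.26) and *Apobec2* (1.03). It turned *Mybph* in retinol over UVR (-0.90), *Nrap* (0.62) and *Tnfaip2* (-0.21) in 9-cis HPR over UVR, and *Mylpf* (1.75), *Mybph* (1.70), *Ndufa2* (1.48), *Chchd3* (1.47), *Nrap* (1.46), *Casq1* (1.45), *Lor* (-2.12), *Sprr1b* (-2.12) and *Crct1* (-2.42) in 9-cis HPR over retinol, by construction within an area. On the left side alone *Nccrp1* in 9-cis HPR over UVR turned to -0.13. Counts of 2-fold genes were 75 for UVR over control, 93 for retinol over UVR, 207 for 9-cis HPR over UVR and 39 for 9-cis HPR over retinol. With at least 100 UMIs they were 33, 38, 107 and 17, and with at least 20 UMIs 286, 293, 512 and 147. Muscle-enriched genes and scaling gave 37, 39, 60 and 11. Equal totals gave 26, 49 and 80 for the first 3, and members with at least 90% *Myh4* gave 45, 40 and 104. The right side, a choice made after seeing the data like the limit on epidermal UMIs, gave 42, 51, 106 and 14, and the left side 60 for retinol over UVR. The grid gave 43 for 9-cis HPR over UVR. Scaling on muscle-enriched genes gave list medians of -1.68 for *Myh4*, *Pvalb* and *Mylpf* in 9-cis HPR over UVR and 0.54 for epidermis in retinol over UVR, and 2 called genes between classes. Leaving out each section in turn gave 0 called genes between classes, with *Pvalb* between 0.42 and 0.47. The classes were paired by section; without that block 0 genes were called. Between sections no paired analysis was possible because each group has 1 section. With 1 section per group and 25 control members, depth limits ratios that rest on a few UMIs.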
